A study of Arabidopsis thaliana with 21 samples.

Results

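SWEET4 (AT3G28007) and SWEET17 (AT4G15920) are 2 Arabidopsis thaliana genes of the SWEET family of sugar transporters. They were taken by gene symbol, were chosen by levels already known from these arrays, and are 2 of 13350 genes with a probe set of their own here. SWEET4 was selected on its levels at 4 °C in the wild type and in camta1/2/3, so its comparisons with arrays at 4 °C are given as a description with no test. Which values selected SWEET17 was not known, so none of its differences was tested. In the RefSeq annotation SWEET4 lies on chromosome 3 between AT3G28005 and AT3G28010, and SWEET17 on chromosome 4 between DI21 and AT4G15930. The other genes whose symbol begins with SWEET number 13. Of these, 12 are numbered members of the family, and SWEETIE (AT1G67140) shares only the beginning of the name and is not a SWEET transporter.

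SWEET proteins are membrane channels that let sugars move down their concentration gradient in either direction, without using energy. Several members carry hexoses across the plasma membrane, another group carries sucrose out of cells near the phloem, and others sit in the membrane of the vacuole, where leaf cells store sugars. SWEET4 is known as a hexose transporter of the plasma membrane, and SWEET17 as a fructose transporter of the vacuole membrane. Soluble sugars accumulate in leaves in the cold, and transporters of the vacuole membrane take part in that storage. The CAMTA proteins are calmodulin-binding transcription factors that link calcium signals to gene expression in the cold and in immunity.

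Transcript levels were measured on 21 arrays in the whole aerial parts of Col-0 plants raised on soil for 3 weeks at 22 °C with 12 h of light per day. The 5 genotypes at 22 °C were wild type (WT), camta1/2/3, mutated in 3 CAMTA genes, and mutants in 2 of them, camta1/2, camta1/3 and camta2/3. WT and camta1/2/3 were also measured after 24 h at 4 °C. Each of the 7 groups had 3 arrays, labelled as biological replicates, and the labels give neither the mutant alleles nor how many plants went into a sample. None of the 3 mutated genes had a probe set named here, so the genotypes were not checked on the arrays.

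Levels are the deposited log2 values, which ran from 2.17 to 14.27, with array medians between 4.86 and 5.01. Means are given ± SD with n = 3 arrays, and differences of group means ± SE from a limma fit to all arrays. A gene is said to have risen or fallen where its adjusted p was under 0.05. All 3 measured markers of green tissue (of 10 listed) were high in every group, with group means between 10.01 and 13.66. The single measured flower marker (of 6) lay between 2.39 and 2.65 on all arrays. PYK10, the single measured root marker (of 6), had group means between 6.40 and 8.83. A listed gene is called measured where a probe set was named for it alone, and no phloem, xylem or senescence marker had one. Whether probe sets without a name, or with several genes, measure the others was not checked.

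In the warm, SWEET4 fell in camta1/2/3 and, by less, in camta2/3 relative to WT, and it was not called in camta1/2 or camta1/3. The 3 WT arrays at 22 °C held levels of 5.64, 4.76 and 4.66. The camta1/2/3 arrays at 22 °C held 2.93, 2.93 and 3.23. The groups did not overlap, and the triple mutant arrays were the lowest of all 21. SWEET4 fell from 5.02 ± 0.54 in WT to 3.03 ± 0.17 in camta1/2/3, a difference of -1.99 ± 0.26 or 3.97-fold on the linear scale (limma, adjusted p = 5.68e-05). Among all tested probe sets, 23.5% were called in this comparison. SWEET4 was selected on the levels of the same genotypes at 4 °C, and the SE comes from all 21 arrays, those at 4 °C included. The p-values of SWEET4 at 22 °C are thus not independent of that selection. The level in camta1/2/3 is close to the low end of the values, which came without detection calls, so the fold of 3.97 may be a lower bound. In whole aerial parts, fewer cells that use SWEET4 and less SWEET4 RNA per cell cannot be told apart.

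The double mutants lay between WT and the triple mutant. The camta1/2 arrays held SWEET4 levels of 4.66, 4.97 and 4.29, and the camta1/3 arrays held 4.68, 4.29 and 4.07. Both groups overlapped with WT. The difference from WT was -0.38 ± 0.26 in camta1/2 (adjusted p = 0.832) and -0.67 ± 0.26 in camta1/3 (adjusted p = 0.275), and neither was called. Over all probe sets 0.163% were called in camta1/2 and 2.21% in camta1/3.

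In camta2/3 the SWEET4 levels were 4.35, 3.53 and 3.73, all below the lowest WT array. The difference from WT was -1.15 ± 0.26, a 2.22-fold fall (adjusted p = 0.0102), in a comparison that called 10.1% of all probe sets. This call was lost without replicate 2 of camta2/3 (adjusted p = 0.0522) and in a fit to only the 6 arrays compared (adjusted p = 0.179). As a share of the WT level on the linear scale, SWEET4 stood at 25.2% in camta1/2/3, 45.1% in camta2/3, 62.7% in camta1/3 and 76.8% in camta1/2.

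Set against each double mutant, the triple mutant showed a lower SWEET4 level in all 3 pairings, with no overlap of arrays. The difference was -1.61 ± 0.26 against camta1/2 (adjusted p = 0.000687) and -1.32 ± 0.26 against camta1/3 (adjusted p = 0.00493). Against camta2/3 it was -0.84 ± 0.26, a 1.79-fold difference that was not called (adjusted p = 0.146), and it was called with array weights estimated by limma (-0.81, adjusted p = 0.0246). The difference from camta1/3 was not called in a fit to only the 6 arrays compared (adjusted p = 0.0547). These 3 comparisons called 15.5%, 9.57% and 1.43% of all probe sets.

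After 24 h at 4 °C, SWEET4 stood higher than at 22 °C in both genotypes, and its level in camta1/2/3 came only to the range of WT in the warm. The WT arrays at 4 °C held 7.98, 7.59 and 7.79, the highest SWEET4 levels of the data. The camta1/2/3 arrays at 4 °C held 4.66, 4.82 and 4.82, which lie within the range of the warm WT arrays. Within each genotype the arrays of the 2 temperatures did not overlap.

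The difference between 4 °C and 22 °C was 2.77 ± 0.26 in WT, or 6.81-fold, and 1.74 ± 0.26 in camta1/2/3, or 3.33-fold. In camta1/2/3 the warm level near the low end may make the fold a lower bound. The triple mutant was 3.02 ± 0.26 below WT at 4 °C, with 12.3% of the WT level on the linear scale. The difference in the cold response between the genotypes was -1.03 ± 0.37. Its size may be overstated, since the rise in camta1/2/3 may be a lower bound. The difference in cold response came to -1.34 without replicate 1 of WT at 22 °C, the highest of the warm WT arrays. Without replicate 3, the lowest of them, it came to -0.85. None of these differences at 4 °C was tested, since SWEET4 was chosen by them. For all probe sets, 23.1% were called between the temperatures in WT, 22.2% in camta1/2/3, 21.1% between the genotypes at 4 °C and 1.97% for the difference in cold response.

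From the highest to the lowest group, SWEET4 ran from WT at 4 °C (7.79 ± 0.20) and WT at 22 °C (5.02) through camta1/2/3 at 4 °C (4.77 ± 0.09), camta1/2 (4.64 ± 0.34), camta1/3 (4.35 ± 0.31) and camta2/3 (3.87 ± 0.43) to camta1/2/3 at 22 °C (3.03). Of the neighbours in this order, WT at 4 °C was separate from WT at 22 °C, and camta2/3 was separate from warm camta1/2/3. All other neighbours overlapped.

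**Figure D1:**
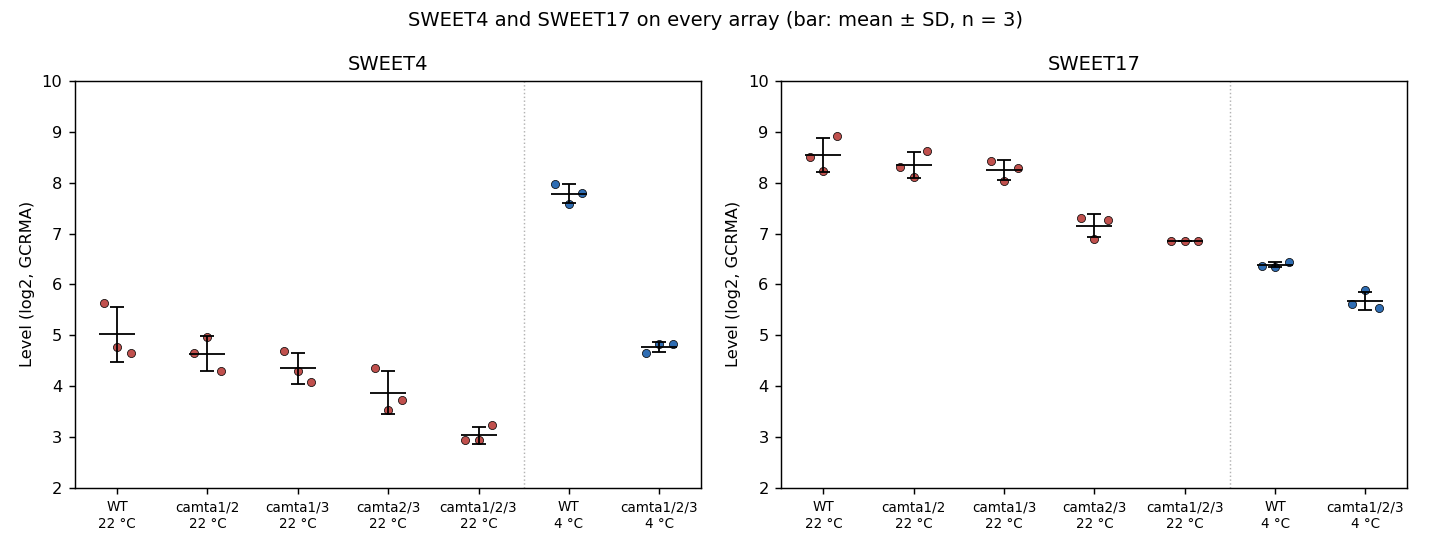
Levels of SWEET4 (left) and SWEET17 (right) on each of the 21 arrays, on the log2 scale of the deposited values, for the 5 groups at 22 °C (red) and the 2 groups at 4 °C (blue); horizontal bars are group means and whiskers SD (n = 3). SWEET4 is highest in WT at 4 °C (7.79) and lowest in camta1/2/3 at 22 °C (3.03), and SWEET17 is highest in WT at 22 °C (8.55) and lowest in camta1/2/3 at 4 °C (5.68).

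SWEET17 was lower in the cold and lower in the triple mutant, so that its lowest level was in camta1/2/3 at 4 °C. In the warm, the WT arrays held 8.50, 8.23 and 8.91, the camta1/2 arrays 8.31, 8.12 and 8.62, and the camta1/3 arrays 8.43, 8.03 and 8.29. These 3 groups overlapped. The camta2/3 arrays held 7.31, 6.89 and 7.26. All 3 camta1/2/3 arrays held 6.85, so the SD of 0 there does not measure the spread. Both genotypes mutated in camta2 and camta3 thus lay below every array of the other 3 warm groups.

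Relative to WT at 22 °C, the SWEET17 difference was -0.20 ± 0.17 in camta1/2 and -0.30 ± 0.17 in camta1/3. The SE is shared by all groups, and the equal values of warm camta1/2/3 entered it. The SWEET17 difference was -1.39 ± 0.17 in camta2/3 and -1.70 ± 0.17 in camta1/2/3. The triple mutant differed by -1.50 from camta1/2 and by -1.40 from camta1/3, and by -0.30 ± 0.17 from camta2/3. In shares of the WT level, SWEET17 stood at 30.8% in camta1/2/3, 38.1% in camta2/3, 81.4% in camta1/3 and 87.3% in camta1/2.

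At 4 °C the SWEET17 levels were 6.37, 6.35 and 6.44 in WT and 5.62, 5.88 and 5.54 in camta1/2/3. Every array at 4 °C lay below every array at 22 °C, the mutants included. The difference between 4 °C and 22 °C was -2.16 ± 0.17 in WT, or 4.47-fold, and -1.17 ± 0.17 in camta1/2/3, or 2.25-fold. The triple mutant differed from WT by -0.71 ± 0.17 at 4 °C, where it stood at 61.3% of the WT level, and by -1.70 at 22 °C. The difference in the cold response was 0.99 ± 0.24, with the smaller difference between temperatures in the triple mutant.

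The order of SWEET17 was WT (8.55 ± 0.34), camta1/2 (8.35 ± 0.25), camta1/3 (8.25 ± 0.20), then camta2/3 (7.15 ± 0.23) and last of the warm groups camta1/2/3 (6.85), followed by WT (6.39 ± 0.05) and camta1/2/3 (5.68 ± 0.18) at 4 °C. The first 3 groups overlapped as neighbours, and every later neighbour was separate. SWEET4 and SWEET17 thus shared the lower level in camta2/3 and camta1/2/3 and stood on opposite sides of the warm WT level in the cold WT. Across the 7 group means the Pearson correlation between them was -0.21, a description over points that share arrays and normalization.

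The temperature comparison within WT, the same within camta1/2/3, and the genotype comparisons at 4 °C and 22 °C share groups with one another. In each of the 4, the arrays did not overlap for either gene, against 31.3%, 29.3%, 27.9% and 32.5% of all probe sets, in that order. Nothing is read from these counts, since the genes were chosen with such values known.

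Other measures moved with these groups. The summed level of the 3 green markers ranged on the log2 scale from 14.24 to 14.53 in WT and from 13.73 to 14.25 in camta1/2/3 at 22 °C, and from 13.12 to 13.36 and from 12.96 to 13.40 at 4 °C. In camta2/3 it ranged from 13.98 to 14.22, below all warm WT arrays, in camta1/3 from 14.19 to 14.47 and in camta1/2 from 14.14 to 14.48. The actin control level at the 3′ end minus that at the 5′ end, a measure of RNA intactness and of the length of the labelled copies, was 2.23 ± 0.21 in WT and 2.90 ± 0.13 in camta1/2/3 at 22 °C. Among the double mutants it was 2.62 ± 0.16 in camta2/3, 2.48 ± 0.26 in camta1/3 and 2.09 ± 0.05 in camta1/2. On the cold arrays the value was 2.00 ± 0.62 for WT and 3.11 ± 0.996 for camta1/2/3, with replicate 2 of the latter at 4.25. On that array SWEET4 was at 4.82 and SWEET17 at 5.88, against 4.66 and 4.82, and 5.62 and 5.54, on the other camta1/2/3 arrays at 4 °C. PYK10, the single measured root marker, stood at 7.97 ± 0.48 in WT and 8.83 ± 0.43 in camta1/2/3 at 22 °C. At 4 °C it stood at 6.40 ± 0.05 and 7.14 ± 0.18. Among the double mutants PYK10 was at 7.19 ± 0.63 in camta1/2, 7.57 ± 0.46 in camta1/3 and 7.44 ± 0.19 in camta2/3. The part of the green markers, the actin measure and PYK10 in the SWEET results was not tested.

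Of the 12 other numbered SWEET genes, 7 had group means under 3 in all groups, near the lowest values of the arrays, namely SWEET3, SWEET6, SWEET7, SWEET8, SWEET9, SWEET10 and SWEET14. The other 5, SWEET1, SWEET2, SWEET11, SWEET13 and SWEET16, had at least 1 group mean over 4. Members of the family are alike in sequence, and whether a probe set also binds a relative was not tested. The members SWEET5 and SWEET15 carry the symbols AtVEX1 and SAG29 here, so they fall outside the 13 genes. AtVEX1 had group means of at most 2.37, and those of SAG29 lay between 3.42 and 3.61. SWEET12 was not analysed here.

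Among the hexose transporters, SWEET1, a glucose transporter of the plasma membrane, rose in the cold in both genotypes. Its WT arrays held 7.89, 7.40 and 7.16 at 22 °C and 9.19, 8.87 and 8.97 at 4 °C, a rise of 1.53 ± 0.27 or 2.88-fold (adjusted p = 0.000666). In camta1/2/3 the arrays held 7.16, 6.77 and 7.13 at 22 °C and 9.23, 7.88 and 8.40 at 4 °C, a rise of 1.48 ± 0.27 (adjusted p = 0.000922; 0.0887 with only the 6 arrays compared). The triple mutant did not pass the test against WT at 22 °C (-0.46 ± 0.27, adjusted p = 0.267) or at 4 °C (-0.51 ± 0.27, adjusted p = 0.220). The difference in the cold response of SWEET1 was -0.04 ± 0.38 (adjusted p = 1.0).

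SWEET2, a glucose transporter of the vacuole membrane, rose in the cold in camta1/2/3, from 5.90 ± 0.58 to 7.10 ± 0.35 (1.20 ± 0.29, adjusted p = 0.00744). In WT its difference between the temperatures was 0.15 ± 0.29 (adjusted p = 0.848). The difference between these cold responses was 1.05 ± 0.41 and did not pass the test (adjusted p = 0.269). The rise in camta1/2/3 was not called in a fit to only the 6 arrays compared (adjusted p = 0.125).

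SWEET11 and SWEET13 carry sucrose, and SWEET11 is known for the release of sucrose from leaf phloem parenchyma. SWEET11 was the opposite of SWEET4 in direction, rising in camta2/3 and camta1/2/3 and falling in the cold. Its WT arrays held 10.66, 10.67 and 10.49 at 22 °C and 9.33, 9.81 and 9.38 at 4 °C, a fall of -1.10 ± 0.16 or 2.14-fold (adjusted p = 0.000131). The camta1/2/3 arrays held 11.34, 11.07 and 11.34 at 22 °C and 11.03, 10.28 and 10.71 at 4 °C, a fall of -0.58 ± 0.16 (adjusted p = 0.0175) that was lost in 3 of 6 fits without 1 array, those without replicates 1 or 3 at 22 °C or replicate 2 at 4 °C (adjusted p up to 0.0848). With only the 6 arrays compared its adjusted p was 0.198.

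Between the genotypes, SWEET11 was higher in camta1/2/3 by 0.64 ± 0.16 at 22 °C (adjusted p = 0.00836) and by 1.17 ± 0.16, or 2.24-fold, at 4 °C (adjusted p = 9.80e-05). The latter call was not made in a fit to only the 6 arrays compared (adjusted p = 0.0622). In camta2/3 it was higher than in WT by 0.59 ± 0.16 (adjusted p = 0.0294), a call lost in 5 of 6 fits without 1 array (adjusted p up to 0.114), those without any WT array or without replicates 1 or 2 of camta2/3. Over the 7 group means SWEET11 had a Pearson correlation of -0.98 with SWEET4, rank 3111 of 3140 genes.

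SWEET13 had its lowest level where SWEET4 had its lowest, in warm camta1/2/3. The WT arrays at 22 °C held 5.39, 6.11 and 6.13, and the camta1/2/3 arrays 4.03, 3.35 and 4.98, with no overlap but a wide spread in the mutant. The fall was -1.76 ± 0.31 or 3.38-fold (adjusted p = 0.000654). The triple mutant was also below camta1/2 (-1.59 ± 0.31, adjusted p = 0.00265) and camta1/3 (-1.59 ± 0.31, adjusted p = 0.00444), and the difference from camta2/3 was -1.08 ± 0.31 (adjusted p = 0.109). These 3 calls of SWEET13 were not made in fits to only the 6 arrays compared (adjusted p from 0.0939 to 0.166).

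At 4 °C SWEET13 stood at 6.62 ± 0.20 in WT and 5.46 ± 0.29 in camta1/2/3, a difference of -1.16 ± 0.31 (adjusted p = 0.0141). That call was lost without replicate 2 of WT or replicate 3 of camta1/2/3 at 4 °C (adjusted p up to 0.0504). Its rise in the cold was called in camta1/2/3 (1.34 ± 0.31, adjusted p = 0.00537; 0.170 with only the 6 arrays compared) and was not called in WT (0.74 ± 0.31, adjusted p = 0.104). The difference between these responses did not pass the test (0.59 ± 0.44, adjusted p = 0.637). SWEET13 lies next to SWEET10 on chromosome 5 in the RefSeq annotation, and SWEET10 had group means between 2.52 and 2.80.

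SWEET16 is, like SWEET17, a transporter of the vacuole membrane. Its levels were low, with WT arrays of 5.22, 4.59 and 5.40 at 22 °C and of 4.31, 4.23 and 4.21 at 4 °C. It fell in the cold in WT by 0.82 ± 0.24 (adjusted p = 0.0207), and it was lower than WT in camta2/3 (-0.82 ± 0.24, adjusted p = 0.0392) and in camta1/2/3 (-0.69 ± 0.24, adjusted p = 0.0469). Outside warm WT its levels lay between 4.18 and 5.28, and most were close to the lowest. The calls of SWEET16 were lost in 4 or 5 of 6 fits without 1 array, those without replicates 1 or 3 of warm WT among them, and in the fit to only the arrays compared (adjusted p from 0.0950 to 0.153). Those in the cold and in camta1/2/3 were also lost with array weights (adjusted p = 0.0572 and 0.0540).

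**Figure D2:**
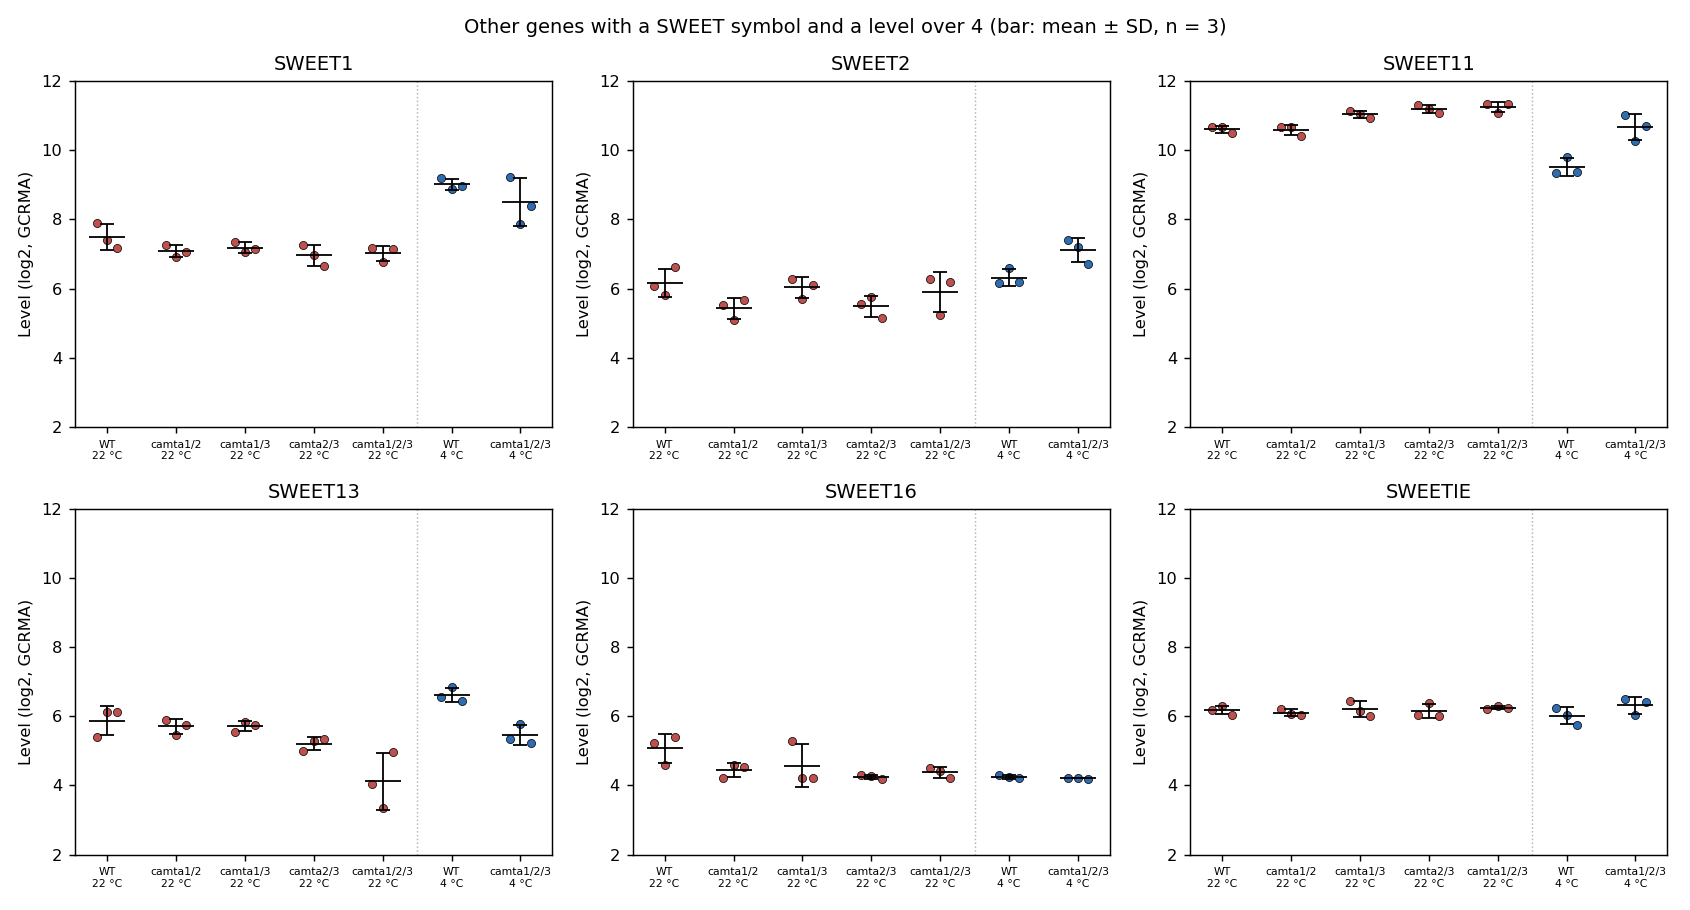
Levels of SWEET1, SWEET2, SWEET11, SWEET13, SWEET16 and SWEETIE on each of the 21 arrays (log2 scale, red for 22 °C and blue for 4 °C, bars for means and whiskers for SD, n = 3). SWEET11 is highest in camta1/2/3 at 22 °C (11.25) and lowest in WT at 4 °C (9.51), and the group means of SWEETIE stay between 6.02 and 6.32.

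Counted over the 13 genes, 1 rose and 3 fell in WT between 22 °C and 4 °C, against 23.1% of all probe sets called. In camta1/2/3, 4 rose and 1 fell, against 22.2%. Between camta1/2/3 and WT, 1 was higher and 1 lower at 4 °C, against 21.1%, and 1 was higher and 3 lower at 22 °C, against 23.5%. The median difference of the 13 genes was between -0.08 and 0.07 in these 4 comparisons, and that of all probe sets was 0.0. In fits to only the arrays compared, the numbers called were 2, 0, 1 and 1 in the same order. The shares of all probe sets above belong to the fit to all arrays, so these numbers cannot be set against them.

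In camta2/3, 1 gene was higher and 2 were lower than in WT, against 10.1% of all probe sets. This count of 3 fell to 0 or 1 in every fit without 1 array of camta2/3 or warm WT. These counts include SWEET7, lower in WT at 4 °C, warm camta1/2/3 and camta2/3 than in warm WT, and SWEET6, higher in camta1/2/3 at 4 °C than at 22 °C. Their arrays all lay between 2.17 and 2.45, at the low end, with differences of at most 0.17. The calls of SWEET7 were lost in 2 to 5 of 6 fits without 1 array, those without replicates 2 or 3 of warm WT among them. Of the 13 genes, 0 were called by limma in camta1/2 against WT (3 at an unadjusted p under 0.05), 0 in camta1/3 against WT (2) and 0 for the difference in cold response (3). Over all probe sets these comparisons called 0.163%, 2.21% and 1.97%, in that order. SWEETIE was called in none of the 11 comparisons.

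**Figure D3:**
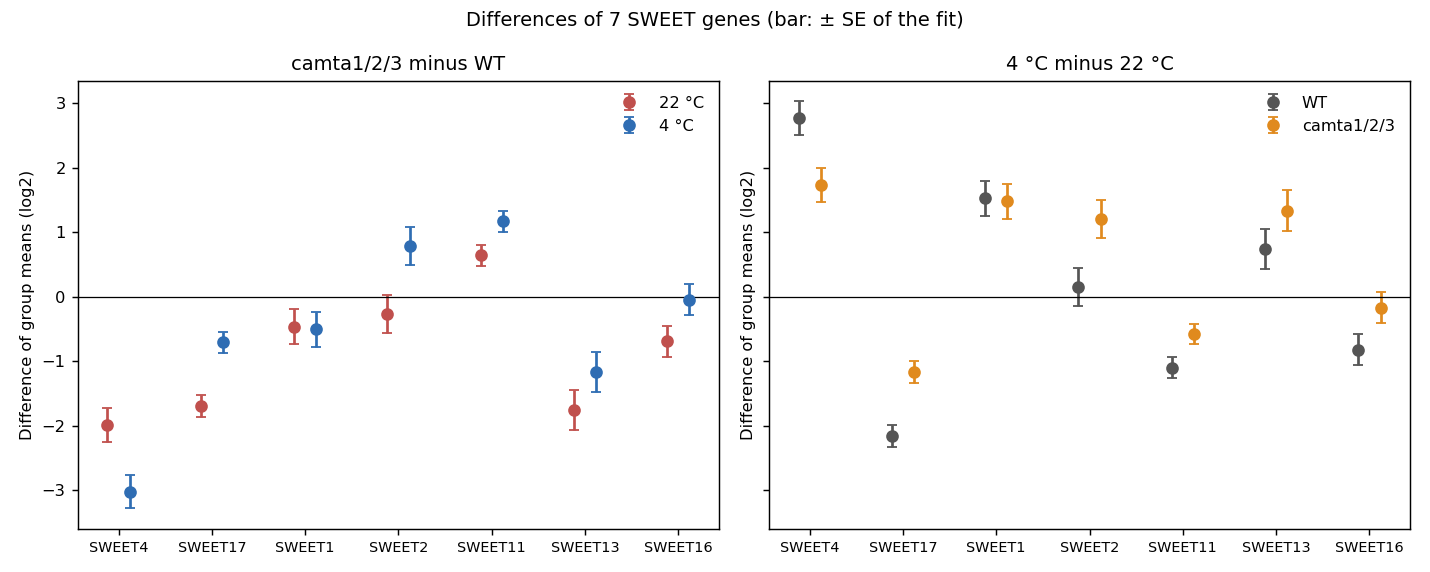
Differences of group means (log2) ± SE for SWEET4, SWEET17 and the 5 other numbered SWEET genes with a group mean over 4, between camta1/2/3 and WT at each temperature (left) and between 4 °C and 22 °C in each genotype (right). SWEET4 has the lowest difference between the genotypes at 4 °C (-3.02), and SWEET17 the lowest difference between the temperatures in WT (-2.16).

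The genes most like SWEET4 were found among 3140 other genes whose group means span at least 1. By the Pearson correlation of 7 group means they were HGPT (r = 0.994), a purine salvage phosphoribosyltransferase, AT1G49560 (0.992), AT5G40040 (0.991), GIS (0.989), a zinc finger factor of trichome formation, and AT1G16860 (0.988). SWEET13 had rank 250 (0.89) and SWEET1 rank 394 (0.83). Over the 21 arrays in place of the group means, 2 of these 5 genes, GIS and AT1G16860, stayed among the closest 5.

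The 5 genes most like SWEET17 were ACT11 (r = 0.994), an actin, IQD31 (0.993), a protein with a calmodulin-binding IQ67 domain, LrgB (0.992), a glycolate and glycerate carrier of the chloroplast envelope, CaS (0.991), a calcium-sensing protein of the thylakoid, and AT1G19835 (0.991). ACT11 held 6.09, 6.06 and 6.84 in warm WT and 4.59, 4.70 and 4.81 in warm camta1/2/3. At 4 °C it held 4.22, 4.58 and 4.56 in WT and 3.95, 3.90 and 3.61 in camta1/2/3. It stood in the same order of groups as SWEET17 from camta2/3 downward, which its choice by correlation over these group means favours. Over the 21 arrays, 2 of the 5 genes, ACT11 and AT1G19835, stayed among the closest 5. These correlations are descriptions over 7 points of shared normalization.

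**Figure D4:**
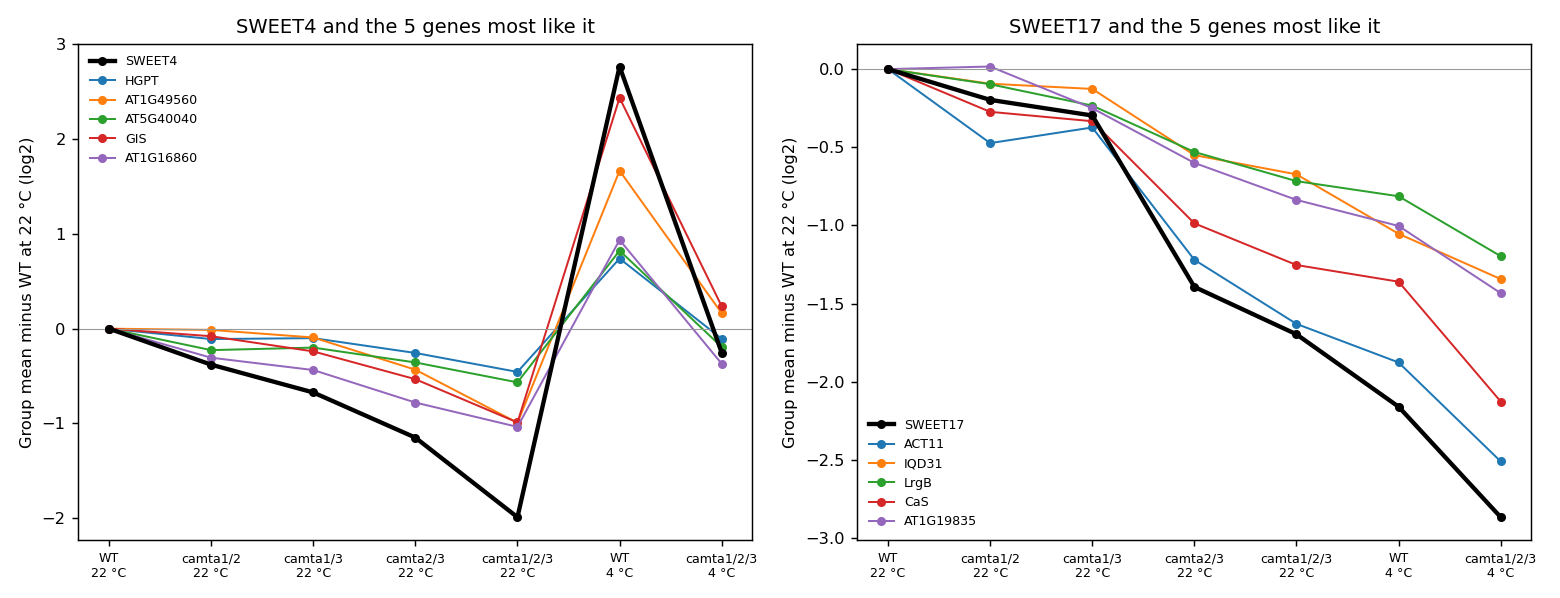
Group means minus the mean of WT at 22 °C (log2) for SWEET4 (left) and SWEET17 (right), each in black, with the 5 genes most like it in colour, over the 7 groups. All lines on the left peak in WT at 4 °C, and all on the right are lowest in camta1/2/3 at 4 °C. The coloured genes were chosen by correlation over these same group means.

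The wider sugar genes were taken from 7 lists of 103 transporters and enzymes. Of these, 31 genes in 5 lists had a probe set named for them alone and are called measured. None of the sucrose symporters or raffinose synthesis genes had one, and whether unnamed probe sets measure them was not checked. In WT, 3 rose and 8 fell between 22 °C and 4 °C (11 of 31 genes, against 23.1% of all probe sets). In camta1/2/3, 3 rose and 3 fell, against 22.2%. Against WT, camta1/2/3 had 3 higher and 5 lower genes at 4 °C (21.1% of all probe sets called), and 4 higher and 7 lower at 22 °C (23.5%). In camta2/3, 1 was higher and 5 were lower (10.1%), and in camta1/3 2 were lower (2.21%). In camta1/2, 0 were called by limma (3 at an unadjusted p under 0.05; 0.163% of all probe sets called). The median differences of the 31 genes lay between -0.01 and 0.02 in all of these.

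Of the 15 measured transporters of the vacuole, the plastid and the ERD6-like family, 2 were lower in camta1/2/3 than in WT at 4 °C and 4 at 22 °C, where 21.1% and 23.5% of all probe sets were called. AT1G19450, an ERD6-like sugar transporter, was like SWEET4 in direction. It rose in the cold from 8.87 ± 0.16 to 10.17 ± 0.38 in WT and from 7.02 ± 0.08 to 9.003 ± 0.31 in camta1/2/3, and was lower in the triple mutant at 22 °C (-1.85 ± 0.19, adjusted p = 7.48e-06) and at 4 °C (-1.17 ± 0.19, adjusted p = 0.000392; 0.0703 with only the 6 arrays compared).

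SFP2, another ERD6-like transporter, was like SWEET17 in direction. It fell in the cold in WT from 5.69 ± 0.20 to 3.82 ± 0.39 (adjusted p = 2.80e-05), and was 3.93 ± 0.08 in warm and 3.67 ± 0.30 in cold camta1/2/3. AT5G59250, listed with the vacuolar and plastid glucose transporters, was lower in camta1/2/3 at 22 °C (-0.87 ± 0.15, adjusted p = 0.000526) and at 4 °C (-0.62 ± 0.15, adjusted p = 0.00802; 0.130 with only the 6 arrays compared). AT4G04750 was lower at 22 °C (-0.62 ± 0.20, adjusted p = 0.0356), a call lost in 5 of 6 fits without 1 array. Those were all but the fit without replicate 3 of WT.

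TMT2, which loads sugars into the vacuole, was named after its values were seen. It rose in the cold from 7.36 ± 0.10 to 9.09 ± 0.13 in WT and from 7.05 ± 0.24 to 8.89 ± 0.53 in camta1/2/3 (adjusted p = 2.84e-05 and 1.98e-05). SWEET17, in the same membrane, stood lower in the cold in both genotypes.

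Of the 8 measured invertases and hexose kinases, 4 were called between camta1/2/3 and WT at 22 °C and 5 at 4 °C, against 23.5% and 21.1% of all probe sets. Among them was AT2G31390, a fructokinase named after its values were seen, whose call at 22 °C was lost in all 6 fits without 1 array (adjusted p up to 0.138). AT1G62660, a vacuolar invertase that splits sucrose into glucose and fructose, was like SWEET17 in its direction. It stood at 7.997 ± 0.38 in warm WT, 5.48 ± 0.26 in camta2/3, 5.99 ± 0.22 in warm camta1/2/3, 5.90 ± 0.12 in cold WT and 4.62 ± 0.12 in cold camta1/2/3. Its fall was called in camta1/2/3 at 22 °C (-2.01 ± 0.30, adjusted p = 0.000153), in camta1/2/3 at 4 °C (-1.28 ± 0.30, adjusted p = 0.00584) and in the cold in WT (-2.10 ± 0.30, adjusted p = 9.19e-05). The cell-wall invertase family gene cwINV6 was higher in camta1/2/3, at 8.13 ± 0.28 against 4.91 ± 1.54 in warm WT (adjusted p = 0.00308). At 4 °C it was at 6.54 ± 0.22 against 4.39 ± 0.96 (adjusted p = 0.0389), a call lost in 5 of 6 fits without 1 array, all but the fit without replicate 3 of WT. With only the 6 arrays compared, the adjusted p was 0.0781 at 22 °C and 0.0870 at 4 °C.

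The fructokinases, which phosphorylate the fructose that invertases release, moved both ways. AT5G51830 rose in the cold in WT from 5.35 ± 0.09 to 6.80 ± 0.22 and in camta1/2/3 from 5.91 ± 0.27 to 8.16 ± 0.27, and was higher in the mutant at 4 °C by 1.36 ± 0.23 (adjusted p = 0.000656). AT1G66430 was lower in camta1/2/3 at 22 °C (-1.13 ± 0.15, adjusted p = 4.74e-05) and at 4 °C (-0.84 ± 0.15, adjusted p = 0.000678).

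In the remaining lists, the hexose symporter gene AT5G61520 was higher in camta1/2/3 at 22 °C (1.24 ± 0.34, adjusted p = 0.0158), 1 of 4 measured symporters, and this call was lost in 3 of 6 fits without 1 array, those without replicates 2 or 3 of WT or replicate 1 of the mutant. The polyol transporter list gene AT2G20780 was higher at 22 °C (0.45 ± 0.13, adjusted p = 0.0214), 1 of 2 measured. This call was lost in 3 fits, those without replicate 3 of WT or replicates 1 or 2 of the mutant. It was also lost with only the 6 arrays compared (adjusted p = 0.0588). Of all probe sets, 23.5% were called between camta1/2/3 and WT at 22 °C. AT2G35840, a sucrose phosphatase of the last step of sucrose synthesis, was lower at 22 °C (-0.81 ± 0.20, adjusted p = 0.00845) and at 4 °C (-0.97 ± 0.20, adjusted p = 0.00294). Neither was called with only the 6 arrays compared (adjusted p = 0.0689 and 0.0652).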

How the data were processed

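RNA of the aerial parts was amplified, labelled with biotin and hybridized to 1 array per sample, per the labels' protocols. The authors deposited log2 values from GCRMA, and the submitters' processing notes also name limma, with versions not given in the sources used here. No further scaling was applied. Each of the 21 columns was matched to its sample by accession.

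Of 22810 probe sets, 64 controls were left out and 22746 were tested, with no filter. Genes were named from a probe annotation matched to RefSeq (TAIR10.1), which names 13350 genes; 503 probe sets with several genes and 8730 without a name were tested unnamed. No coordinates or sequences are given. Each SWEET gene had 1 probe set. A gene with several was given by the one with the highest mean.

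With limma 3.58.1 in R 4.3.3, lmFit and eBayes fitted 7 group means to the 21 arrays (14 residual and 0.954 prior degrees of freedom). Tests were two-sided, with Benjamini-Hochberg adjustment over all tested probe sets of a comparison and calls at an adjusted p under 0.05. With 3 arrays per group, precision is limited by their number, and p-values measure the spread between samples labelled as biological replicates. The fit was tested on simulated data.

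The members, lists and tests were chosen with earlier results of these data known. Named were the SWEET genes, the 5 genes most like each member, and up to 4 members of a sugar list called between camta1/2/3 and WT. Replicate numbers were checked for pairing. Of 30 correlations of same-numbered deviations, 17 were over 0.1, and 16 of 21 arrays were closest to an array of their own number. Same-numbered arrays thus shared some deviation. The labels give no more than a number, so the main fit held no replicate block, and a block was run as an alternative. Alternatives were a filter on a level of 4, quantile normalization, centring of each array, a variance trend, array weights, a replicate block, only the arrays compared, an adjusted p under 0.01, likeness over arrays, and leaving out each array.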

Additional observations from a re-analysis of the deposited data

Results flagged for a closer look

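The sugar transporter gene SFP2 responded to cold differently in the 2 genotypes. Its level went from 5.69 to 3.82 in WT and from 3.93 to 3.67 in camta1/2/3. The difference between these responses was 1.61 ± 0.33 (limma interaction, adjusted p = 0.0196). It was the 1 call among 31 sugar genes, in a comparison that called 1.97% of all probe sets. The call was lost without replicate 2 of WT at 22 °C (adjusted p = 0.0564) and in a fit to only the arrays compared (adjusted p = 0.0519). The low levels in 3 of the 4 groups limit how far a further fall could be seen.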

How the results depend on the processing

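None of the differences recomputed for SWEET4, SWEET17 and the named genes changed direction under the alternatives run. Of 77 alternative values of SWEET17 other than those without 1 array, 77 moved by less than 1 SD of the replicates. For SWEET4, 74 of 77 kept their call or moved by less than 1 SD. The filter, the variance trend, the replicate block and the fit to only the arrays compared leave a difference of group means unchanged by design. Among these settings, only quantile normalization, centring and array weights could move an untested difference, so the other agreements were fixed in advance. For SWEET4, a fit to only the arrays compared ended the calls of camta2/3 against WT (-1.15) and of camta1/2/3 against camta1/3 (-1.32), and array weights made that against camta2/3 (-0.81). Without 1 array, the SWEET4 difference of camta2/3 from WT ranged from -1.39 to -0.84 and its difference in cold response from -1.34 to -0.85.

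With only the arrays compared, the other SWEET genes called were 2 for cold in WT, 0 for cold in camta1/2/3 (limma), and 1 each for camta1/2/3 against WT at 4 °C, at 22 °C and for camta2/3. An adjusted p under 0.01 left 2, 3, 1, 2 and 0 of these, and array weights called 1 in camta1/3. Without 1 array the counts ranged from 2 to 4, 3 to 4, 1 to 3, 2 to 3 and 0 to 1 in the same order, and from 0 to 1 in camta1/2, in camta1/3 and for the difference in cold response. Of the 31 sugar genes, only the arrays compared called 6 for cold in WT, 3 in camta1/2/3 against WT at 4 °C, 0 in camta1/3 and 0 for the difference in cold response. Without 1 array, 7 to 9 were called in camta1/2/3 at 22 °C, 0 to 1 in camta1/2, 0 to 3 in camta1/3 and 0 to 1 for the difference in cold response. The fits to fewer arrays have fewer residual degrees of freedom, and the share of all probe sets they called is not given here. Other causes were not tested.

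The replicate block changed no call of SWEET4 (camta2/3 against WT -1.15, adjusted p = 0.00643) and moved 1 count, the sugar genes in camta1/3, from 2 to 1. Same-numbered samples share only a number, and 16 of 21 arrays were closest to arrays of their own number, a hint from the data. The lowest-mean probe set as an alternative gave no other value, since no SWEET gene has several. Centring moved the median of all probe sets by at most 0.0667. Between camta1/2/3 and camta2/3, 229 of 326 calls were higher as deposited and 259 of 491 with quantile normalization. Levels near the low end may limit the folds of SWEET4 in warm camta1/2/3 and limit the reading of its difference in cold response.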

Other observations

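All 3 arrays of camta1/2/3 at 22 °C held the same SWEET17 value. Among 8432 probe sets with a mean of at least 6, 18 (0.213%) held 1 value on the 3 arrays of that group, and the share was between 0.178% and 0.320% in the 7 groups. Replicate 2 had the lowest SWEET17 level in 5 of the 7 groups.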
